A study of Mus musculus with 18 samples.

Results

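The receptor chains described here bind cytokines outside the common gamma chain family. They were chosen by name, with earlier results of these data known. The 10 genes listed encode the IL-12 receptor chains (Il12rb1 and Il12rb2), the IL-18 receptor chains (Il18r1 and Il18rap), the IL-6 receptor and its signalling partner gp130 (Il6ra and Il6st), the ligand-binding chains for IL-10 and IL-27 (Il10ra and Il27ra), the ligand-binding chain for interferon gamma (Ifngr1) and the IL-33 receptor (Il1rl1). Of these 10, 9 were measured among 18194 genes, and Il1rl1 was not analysed here. The samples were CD8 T cells of male OT-I mice, which carry a transgenic T cell receptor specific for an ovalbumin peptide. Priming on irradiated splenocytes carrying the peptide lasted 48 hours, after which the T cells were purified and kept for 24 hours in 100 ng/ml of 1 cytokine (IL-2, IL-4 or IL-21, or IL-7 or IL-15) or in medium alone (media control). RNA was hybridised to 18 Affymetrix mouse expression arrays, with 3 biological replicates in each of 6 groups. The comparison asked how each common gamma chain cytokine changed the transcripts of these chains relative to media control.

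IL-12 and IL-18 act together on activated CD8 T cells to induce interferon gamma: IL-12 signals through JAK2, TYK2 and STAT4, and IL-18 through MyD88 and the IRAK kinases. IL-6 binds its own receptor and then gp130, a chain shared with IL-27, LIF and oncostatin M, and signals mainly through STAT3. IL-10 uses a ligand-binding chain with the shared chain IL10RB, and interferon gamma binds IFNGR1 together with IFNGR2.

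Levels are given as log2 values after renewed quantile normalization across the 18 arrays, in the order of replicates 1, 2 and 3. Replicates 1 and 2 were RNeasy preparations, while replicate 3 was prepared by TRIzol and Direct-zol. As deposited, replicate 3 of IL-2, IL-15 and media control had medians of 4.47 to 4.52, against 5.76 to 5.84 in the other 15 arrays. A background level of 6.94 was set from genes of other tissues, and the size of a change at or under it is uncertain. In bulk RNA, fewer cells of a type and less RNA per cell cannot be told apart. The CD8 T cell markers (7 of 7 measured, including Cd8a, Cd8b1 and Cd3e) lay above background, and their mean was 11.7 to 12.7 over the arrays. Of the markers of other cells, those above background on average were 2 of 9 for myeloid cells (Lyz2 and Ctss), 1 of 8 for B cells (Cd79b), 1 of 5 for NK cells (Eomes) and 1 of 4 for CD4 T cells (Zbtb7b). None was above it on average of 6 for dendritic cells, 7 for mast cells and basophils, 3 for type 2 innate lymphoid cells and 2 for red cells. Single arrays did exceed it for Cpa3 (up to 9.49), Kit (8.61), Fcer1a (7.98) and Mcpt8 (7.37) of the mast cells and basophils. The same held for Itgax (7.56) of the dendritic cells and Il17rb (7.63) of the innate lymphoid cells. Among myeloid markers under background on average, single arrays exceeded it for Mpeg1 (up to 9.25), Cybb (8.81), Fcgr3 (7.73) and Csf1r (7.25). Tyrobp (8.42) and Klre1 (8.23) of the NK cells and Cd4 (7.03) of the CD4 T cells did so too. The mast cell and basophil mean was 6.90, 5.75 and 5.21 in media control, the highest group for each replicate number. The myeloid mean lay between 5.71 and 6.19 for IL-4, 5.80 and 6.02 for IL-2, 5.78 and 6.56 for IL-7, 5.96 and 7.11 for IL-21 and 6.02 and 7.37 for IL-15, against 6.25 to 8.04 in media control.

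The IL-18 receptor chains gave the largest differences between cytokines among the 9 chains, and the sequences before their start sites are shown for that reason. RefSeq (GRCm38.p6) held promoter windows, from 250 bases before to 50 after the start, for 6 of the 9 chains, with 8 windows in all. The capitals mark TTCNNNGAA, the letters known for STAT3 and STAT5, or TTCNNNNGAA, the letters preferred by STAT6, which IL-4 activates in leukocytes generally. For CD8 T cells the paper cites work proposing that IL-4 acts mostly through STAT3 and activates STAT6 little. Each motif reads the same on both strands. All 3 windows shown are on the + strand, the first at chr1:40465302-40465601, the second at chr1:40465756-40466055 and the third at chr1:40515112-40515411.
Il18r1, start site 1: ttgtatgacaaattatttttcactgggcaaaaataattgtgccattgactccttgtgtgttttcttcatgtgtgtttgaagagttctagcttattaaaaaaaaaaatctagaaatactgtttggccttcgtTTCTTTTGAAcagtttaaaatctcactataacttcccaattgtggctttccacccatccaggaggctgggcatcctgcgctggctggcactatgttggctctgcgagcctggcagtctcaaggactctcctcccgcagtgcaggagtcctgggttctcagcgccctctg
Il18r1, start site 3: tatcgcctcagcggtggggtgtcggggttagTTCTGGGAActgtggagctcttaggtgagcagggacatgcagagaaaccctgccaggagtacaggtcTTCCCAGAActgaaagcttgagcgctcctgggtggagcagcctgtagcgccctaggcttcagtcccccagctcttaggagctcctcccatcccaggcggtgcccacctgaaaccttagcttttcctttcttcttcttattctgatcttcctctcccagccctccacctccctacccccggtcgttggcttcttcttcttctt
Il18rap: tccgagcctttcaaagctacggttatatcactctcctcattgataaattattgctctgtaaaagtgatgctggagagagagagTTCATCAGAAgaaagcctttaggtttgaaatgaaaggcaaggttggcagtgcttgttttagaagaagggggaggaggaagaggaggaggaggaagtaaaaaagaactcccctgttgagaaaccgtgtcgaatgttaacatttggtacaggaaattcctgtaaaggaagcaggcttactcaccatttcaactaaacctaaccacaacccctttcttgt
The first Il18r1 window held TTCTTTTGAA beginning at -119 from the start, and the window of start site 2 overlapped it and held the same match. The window of start site 3 held TTCTGGGAA at -219 and TTCCCAGAA at -152, and that of Il18rap held TTCATCAGAA at -167. Il12rb2, shown as the partner chain of Il12rb1, had TTCTCAGAA at -123 in chr6:67376139-67376438 on the - strand.
Il12rb2: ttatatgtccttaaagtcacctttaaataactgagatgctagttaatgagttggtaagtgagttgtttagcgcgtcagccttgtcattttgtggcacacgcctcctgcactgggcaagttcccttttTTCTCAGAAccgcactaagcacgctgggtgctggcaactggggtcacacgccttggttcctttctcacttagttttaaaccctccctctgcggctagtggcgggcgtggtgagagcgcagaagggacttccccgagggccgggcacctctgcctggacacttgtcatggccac
The windows of Il6ra, Il6st and Ifngr1 held neither motif. Over all 32851 RefSeq windows of the same length, 8.3% held TTCNNNGAA and 6.95% held TTCNNNNGAA, and matches in the windows shown did not overlap. These matches describe letters only, since binding was not measured.

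Changes from media control were called among the 9 chains for 3 of the 5 cytokines. With IL-2, Il12rb1 rose and Il6ra, Il6st, Il27ra and Ifngr1 fell, so that 5 of 9 chains passed the test, against 15.8% of all genes. With IL-4, Il12rb1 rose and Il18r1, Il6ra, Il6st and Ifngr1 fell, again 5 of 9, against 9.07% of all genes. With IL-21, Il12rb1 and Il18rap rose, 2 of 9 chains against 6.67% of all genes. With IL-7 none of the 9 passed (1.68% of all genes), and with IL-15 none of the 9 passed, as none of the 18194 genes did (0%). The tests were limma's moderated tests with Benjamini-Hochberg adjustment over all genes of a comparison, called at an adjusted p under 0.05. They did not pair the arrays by replicate number. The comparisons share the 3 media control arrays. Unadjusted, limma gave p under 0.05 for 390 genes with IL-15 and 2579 with IL-7. With the replicate number as a block, limma called 8 chains for IL-2 (30.6% of all genes), 8 for IL-4 (25.8%), 6 for IL-7 (16.3%), 0 for IL-15 (0%, though 1566 genes had an unadjusted p under 0.05) and 5 for IL-21 (21.1%). As deposited, it called 0 chains for IL-2 (0.407% of all genes, 1109 at an unadjusted p under 0.05), 1 for IL-4 (0.368%), 0 for IL-7 (0.044%, 888), 0 for IL-15 (0%, 12) and 2 for IL-21 (0.495%). The median change of the 9 chains was -0.75 for IL-4, -0.68 for IL-2, -0.18 for IL-21, -0.14 for IL-7 and 0.03 for IL-15, while the median of all genes lay between -0.02 and 0.01.

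**Figure D1:**
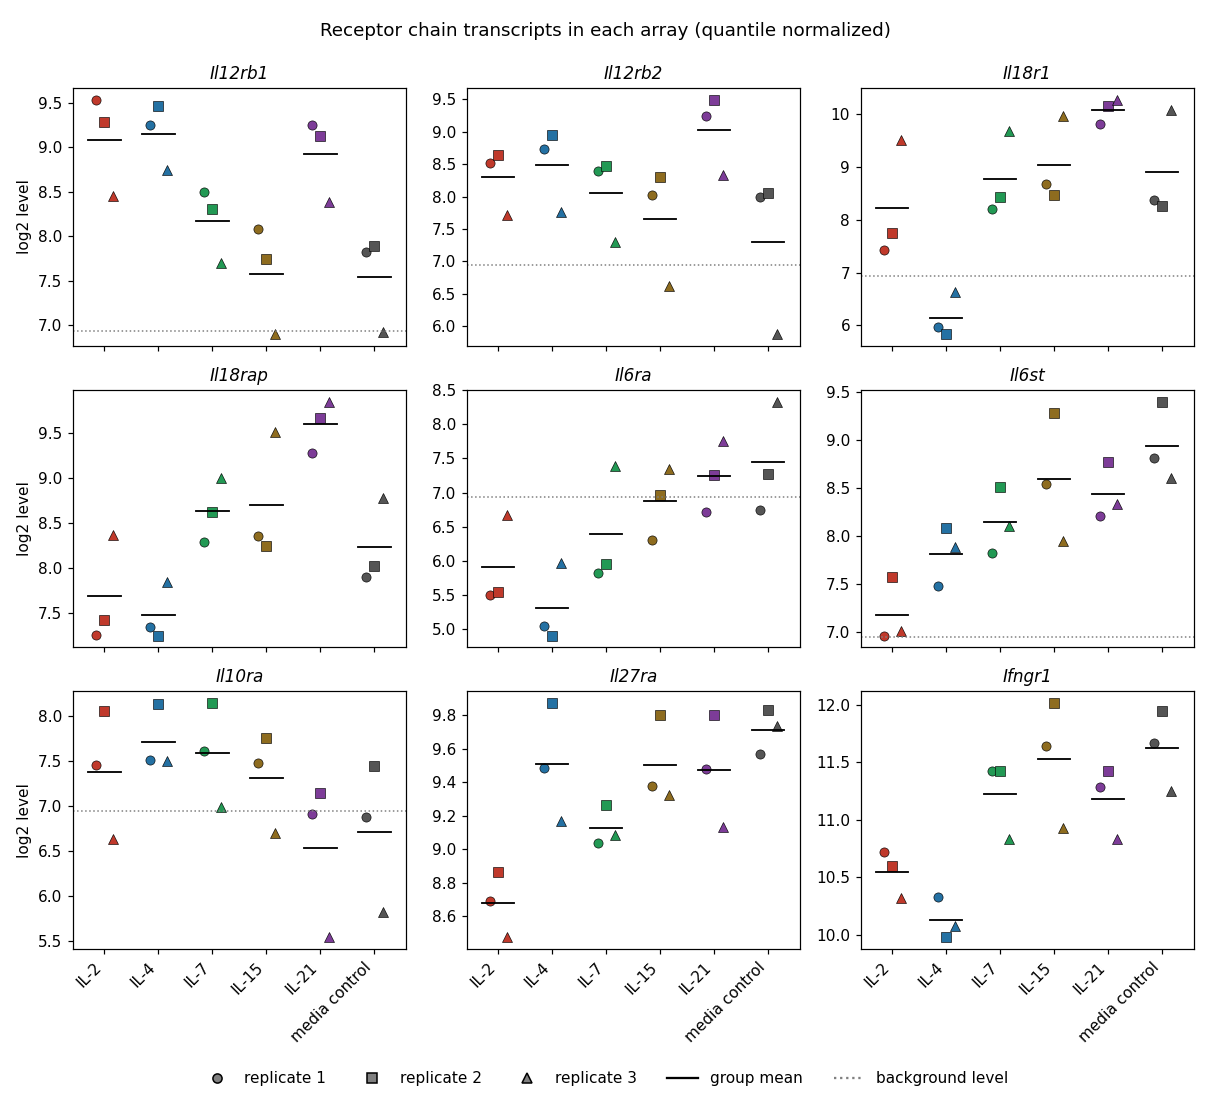
Level of each receptor chain (log2, quantile normalized, vertical axis) in each array of the 5 cytokine groups and media control (horizontal axis), with 1 symbol per replicate number, the group mean as a bar and the background level of 6.94 as a dotted line where it falls in range. Il18r1 with IL-4 lies between 5.84 and 6.63, under background in all 3 arrays, and Il12rb1 in the IL-2, IL-4 and IL-21 groups lies above the 6.92 to 7.89 of media control.

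Il12rb1 encodes the receptor chain shared by IL-12 and IL-23. In IL-2 cultures it measured 9.53, 9.28 and 8.45, in IL-4 cultures 9.25, 9.46 and 8.75, and in IL-21 cultures 9.25, 9.13 and 8.38, against 7.82, 7.89 and 6.92 in media control. In these 3 cytokine groups every array lay above every media control array. The rise was 1.54 on the log2 scale with IL-2 (SE 0.37, 2.91-fold, limma adjusted p = 0.00913), 1.61 with IL-4 (SE 0.37, 3.05-fold, adjusted p = 0.0122) and 1.38 with IL-21 (SE 0.37, 2.59-fold, adjusted p = 0.0357). Within replicate numbers the differences ran from 1.24 to 1.82 over these 3 cytokines. With IL-7 it measured 8.50, 8.31 and 7.70, a difference of 0.62 whose arrays overlapped media control (adjusted p = 0.497, and 0.00286 with the replicate block). With IL-15 it measured 8.09, 7.74 and 6.90, a difference of 0.03 (95% interval -0.76 to 0.82). The call with IL-2 was lost without IL-2 replicate 1 (adjusted p = 0.0529), the IL-4 call on leaving out replicate 2 of IL-4 (0.0602) or replicate 3 of media control (0.061), and the IL-21 call on leaving out IL-21 replicate 1 (0.157) or 2 (0.113) or media control replicate 2 (0.0513) or 3 (0.164).

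Il12rb2, the signalling chain specific to the IL-12 receptor, gave differences of the same sign but varied more between replicates. Its levels were 9.24, 9.49 and 8.33 for IL-21, 8.74, 8.94 and 7.76 for IL-4 and 8.52, 8.65 and 7.72 for IL-2, against 7.98, 8.05 and 5.88 in media control. Only in the IL-21 group did all 3 arrays lie above all 3 of media control, where replicate 3 fell under background. None of these passed the limma test: the difference was 1.71 with IL-21 (SE 0.58, adjusted p = 0.1), 1.18 with IL-4 (adjusted p = 0.268) and 0.99 with IL-2 (adjusted p = 0.347). With the replicate block all passed, at adjusted p = 2.87e-05 for IL-21, 0.00055 for IL-4 and 0.00123 for IL-2. With IL-7 the values were 8.39, 8.46 and 7.30 (difference 0.75, adjusted p = 0.625, and 0.0201 with the block), and with IL-15 they were 8.03, 8.30 and 6.63 (difference 0.35, 95% interval -0.88 to 1.58). Over the 18 arrays Il12rb1 and Il12rb2 correlated at r = 0.84, and at 0.81 after replicate means were removed, a description of arrays that share groups and preparations.

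Of 9 measured genes of the IL-12 family list, 1 rose and 2 fell with IL-2 (15.8% of all genes called), 1 rose and 1 fell with IL-4 (9.07%), 1 fell with IL-7 (1.68%), none passed with IL-15 (0%), and 2 rose and 3 fell with IL-21 (6.67%). The replicate block gave 1 higher and 3 lower for IL-2 (30.6% of all genes), 2 higher and 2 lower for IL-4 (25.8%), 1 lower for IL-7 (16.3%), none for IL-15 (0%), and 3 higher and 4 lower for IL-21 (21.1%), while as deposited only Ifng was called, for IL-2 and IL-21. The same shares of all genes hold for the lists below. The median change of the list ran from -0.30 (IL-21) to 0.05 (IL-4). Ifng, the effector cytokine that IL-12 induces, measured 10.46, 8.83 and 10.63 with IL-2 and 10.37, 10.60 and 9.59 with IL-21, against 7.01, 6.70 and 6.91 in media control. Its rise was 3.31 for IL-21 (SE 0.45, limma adjusted p = 0.00027), and it also rose with IL-2 (3.10) and IL-4 (1.63). Jak2, the kinase that binds the IL-12 receptor, fell with IL-2 (-1.51, SE 0.16, adjusted p = 2.27e-05), IL-4 (-0.55), IL-7 (-0.81) and IL-21 (-0.61). Stat4, which carries the IL-12 signal, fell with IL-2 (-0.81, SE 0.16, adjusted p = 0.00247) and IL-21 (-0.63). The IL-12 subunit gene Il12a stayed under background in all arrays, between 5.59 and 6.06 with IL-21 and 4.64 and 5.07 in media control (change 0.93, adjusted p = 0.00909), and Il12b lay between 4.15 and 4.93 throughout. Ebi3, the partner chain of IL-27 and IL-35, fell with IL-21 (-1.68, SE 0.27, adjusted p = 0.000907), and measured 6.62, 6.61 and 5.82 there, against 7.92, 8.18 and 8.01 in media control.

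**Figure D2:**
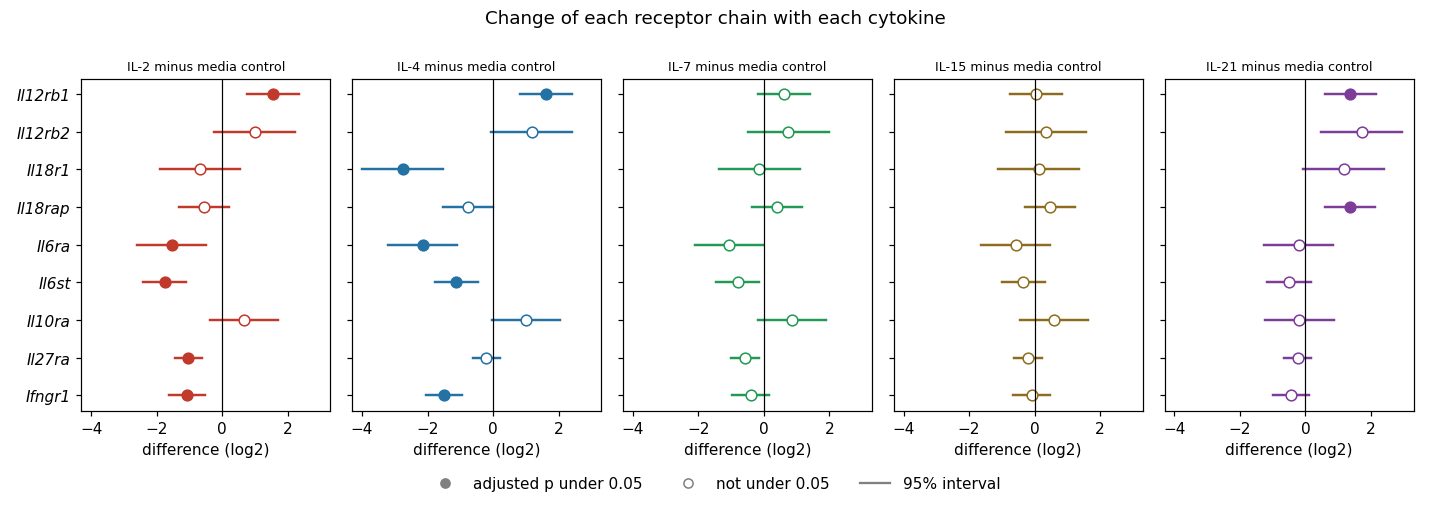
Difference of each receptor chain from media control (log2, horizontal axis) in 5 panels, 1 per cytokine, with the limma 95% interval as a line and a filled point where the adjusted p was under 0.05. Filled points number 5 for IL-2, 5 for IL-4, 0 for IL-7, 0 for IL-15 and 2 for IL-21.

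The IL-18 receptor separated IL-4 from IL-21. Il18r1, the ligand-binding chain, measured 9.81, 10.15 and 10.26 in IL-21 cultures and 5.96, 5.84 and 6.63 in IL-4 cultures, against 8.38, 8.26 and 10.07 in media control. All 3 IL-4 arrays lay under background and under every other array of the series. The fall with IL-4 was 2.76 between measured means (6.14 ± 0.42 with IL-4 and 8.90 ± 1.01 in media control, SD, n = 3 each), which against the background level is at least 3.90-fold lower (limma adjusted p = 0.00659). As deposited, the difference was -2.30 (adjusted p = 0.00427). In the quantile normalized values the call held when any 1 array was left out. It was lost without replicate 1 (adjusted p = 0.104) or replicate 2 (0.129) of every group. With IL-21 the difference from media control was 1.17 (SE 0.58, adjusted p = 0.317), and media control replicate 3 lay within the IL-21 arrays. That rise passed with the replicate block (adjusted p = 0.00601), as deposited (1.67, adjusted p = 0.036), and without the 3 arrays of lower deposited medians (1.75, adjusted p = 0.00905). As deposited, however, the median of all genes was also 0.43 higher with IL-21 than in media control. Media control replicate 3, whose Il18r1 value was 8.72 as deposited and 10.07 here, is among the 3 arrays left out. Between IL-4 and IL-21 the difference was -3.93 (SE 0.58, adjusted p = 0.000596), at least 8.78-fold lower with IL-4.

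With the other cytokines Il18r1 did not pass the test against media control. It measured 7.42, 7.75 and 9.50 with IL-2, 8.20, 8.43 and 9.67 with IL-7, and 8.67, 8.46 and 9.95 with IL-15. The differences from media control were -0.68 with IL-2 (95% interval -1.91 to 0.55), -0.14 with IL-7 (-1.37 to 1.10) and 0.12 with IL-15 (-1.11 to 1.35), and none passed with or without the replicate block. Replicate 3 was the highest array of every group, by 0.27 to 1.91 over the mean of the other replicates. IL-4 also lay under IL-7 (-2.62, adjusted p = 0.0345) and IL-15 (-2.88, adjusted p = 0.0101), while its difference from IL-2 passed only with the block (adjusted p = 0.000168, and 0.0897 without it). The IL-7 call was lost on leaving out any 1 of the 6 arrays compared, and the IL-15 call on leaving out replicate 2 of IL-4.

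Il18rap, the accessory chain that the IL-18 receptor needs to signal, measured 9.28, 9.67 and 9.85 with IL-21 and 7.35, 7.25 and 7.85 with IL-4, against 7.90, 8.02 and 8.78 in media control. Every IL-21 array lay above every media control array, and every IL-4 array lay under them. The rise with IL-21 was 1.36 (SE 0.36, 2.57-fold, limma adjusted p = 0.0306). The second Il18rap probe set, above background on 6 of 18 arrays, rose with IL-21 by 1.49 (SE 0.30, adjusted p = 0.00769). With IL-4 the difference was -0.75 (adjusted p = 0.246, and 0.0028 with the replicate block), and the second probe set gave -0.23. Between cytokines, Il18rap differed by -2.12 for IL-4 against IL-21 (4.34-fold lower, adjusted p = 0.00182) and by -1.92 for IL-2 against IL-21 (3.77-fold lower, adjusted p = 0.00378). The IL-21 call was lost without IL-21 replicate 2 (adjusted p = 0.0856) or 3 (0.112) or media control replicate 1 (0.0997) or 2 (0.116).

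With IL-2, Il18rap measured 7.26, 7.42 and 8.37, with IL-7 8.29, 8.61 and 9.00, and with IL-15 8.35, 8.24 and 9.51, all groups that overlapped media control. The differences were -0.55 (adjusted p = 0.418, and 0.0151 with the block), 0.40 (adjusted p = 0.671) and 0.47 (95% interval -0.29 to 1.23). The second Il18rap probe set gave 0.27 with IL-2, of the other sign, 0.62 with IL-7 and 0.53 with IL-15. Il18r1 and Il18rap correlated at r = 0.89 over the 18 arrays. The genes with the most similar patterns were Klrc1 (r = 0.96) and Ndrg4 (0.92) for Il18r1, and Ptgr1 (0.93) and Pdcd1 (0.90) for Il18rap, among 8472 genes above background over 18 arrays.

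The gene of the IL-18 ligand was lower with IL-4 and higher with IL-21. Il18 measured 10.73, 11.30 and 10.45 in IL-21 cultures and 5.99, 5.87 and 6.09 in IL-4 cultures, against 9.00, 9.71 and 9.21 in media control. The IL-4 arrays were under background and the IL-21 arrays above all control arrays. It fell with IL-4 (-3.33, SE 0.31, limma adjusted p = 1.57e-05), IL-2 (-2.80, adjusted p = 3.35e-05) and IL-7 (-1.50, adjusted p = 0.0247) and rose with IL-21 (1.52, adjusted p = 0.00663). Of 21 measured genes of the IL-1 family list, 1 rose and 4 fell with IL-2 (15.8% of all genes), 3 fell with IL-4 (9.07%), 1 fell with IL-7 (1.68%), none passed with IL-15 and 5 rose with IL-21 (6.67%), with medians from -0.24 with IL-4 to 0.15 with IL-21. In the fit with the block 10 were called for IL-2, 6 for IL-4, 6 for IL-7, none for IL-15 and 7 for IL-21, and as deposited 1, 1, 0, 0 and 3. Il1r1, the IL-1 signalling receptor, measured 8.70, 8.23 and 9.42 with IL-21, against 5.88, 6.23 and 6.32 in media control (2.64, SE 0.22, adjusted p = 3.64e-06). Il1r2, the decoy receptor for IL-1, rose with IL-21 by 1.58 (SE 0.30, adjusted p = 0.00361). Media control was under background for both, and against the background level the rises are at least 3.59-fold for Il1r1 and 1.42-fold for Il1r2. Nfkbiz, a nuclear regulator induced by IL-1 family signals, fell with IL-4 (-1.78, SE 0.19, adjusted p = 4.08e-05).

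The IL-6 receptor and gp130 were lower with IL-2 and IL-4. Il6st, which encodes gp130, measured 6.96, 7.57 and 7.01 with IL-2 and 7.47, 8.08 and 7.88 with IL-4, against 8.81, 9.40 and 8.60 in media control. No array of either cytokine reached the media control range. The difference was -1.76 for IL-2 (SE 0.31, 3.38-fold lower, limma adjusted p = 0.00103) and -1.12 for IL-4 (SE 0.31, 2.18-fold lower, adjusted p = 0.033). A second probe set, above background on 2 arrays, gave -1.72 with IL-2 (adjusted p = 0.0157) and -1.00 with IL-4 (adjusted p = 0.231), while the remaining 2 were under background throughout. With IL-2 the call held when any 1 array was left out. It was lost without replicate 1 of every group (adjusted p = 0.0577) and as deposited (-1.72, adjusted p = 0.527). With IL-4 it was lost without IL-4 replicate 1 (adjusted p = 0.14), 2 (0.0502) or 3 (0.0731) or media control replicate 1 (0.0516) or 2 (0.164).

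With IL-7, Il6st measured 7.82, 8.50 and 8.10, under all media control arrays, and the difference of -0.79 passed only with the replicate block (adjusted p = 0.00576, and 0.237 without it). With IL-21 it measured 8.21, 8.77 and 8.33 (difference -0.50, adjusted p = 0.476, and 0.0446 with the block), and with IL-15 8.54, 9.28 and 7.95 (difference -0.35, 95% interval -1.01 to 0.31). IL-2 was also lower than IL-15 (-1.41, adjusted p = 0.00953) and IL-21 (-1.26, adjusted p = 0.0225). Leaving out IL-2 replicate 1 or IL-15 replicate 2 lost the call against IL-15, and leaving out IL-2 replicate 1 or 3 or IL-21 replicate 2 lost that against IL-21.

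Il6ra, the chain that binds IL-6, was a dim transcript, above background on 7 of 18 arrays. It measured 5.50, 5.55 and 6.67 with IL-2 and 5.05, 4.91 and 5.97 with IL-4, against 6.75, 7.28 and 8.33 in media control. All 6 of these cytokine arrays were under background and under the lowest control array. The measured means differed from media control by -1.55 in IL-2 cultures (SE 0.49, limma adjusted p = 0.0435) and by -2.15 in IL-4 cultures (SE 0.49, adjusted p = 0.0116). The media control mean lay only 1.43-fold above the background level, and media control replicate 1 (6.75) was under it. The other Il6ra probe set was under background on all arrays and differed by -0.12 with IL-2 and -0.16 with IL-4. With IL-7 it measured 5.83, 5.95 and 7.38 (difference -1.07, adjusted p = 0.342, and 0.00181 with the block), with IL-15 6.31, 6.96 and 7.34, and with IL-21 6.72, 7.26 and 7.76. The last 2 differed from media control by -0.58 (95% interval -1.63 to 0.46) and -0.21 (-1.25 to 0.84). The IL-2 call was lost without IL-2 replicate 1 (adjusted p = 0.165) or 2 (0.145) or media control replicate 2 (0.0885) or 3 (0.184), and the IL-4 call without IL-4 replicate 1 (0.0515) or 2 (0.0578) or media control replicate 3 (0.0588).

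IL-6 family receptors also occur on myeloid cells, whose marker mean was 5.80, 6.02 and 5.81 in IL-2 cultures and 5.81, 6.19 and 5.71 in IL-4 cultures, each under that of the same replicate number in media control (6.84, 8.04 and 6.25). Of the 9 myeloid markers, Ctss passed the test, lower with IL-2 (-1.52) and IL-4 (-2.05). The median change of the 9 was -1.45 with IL-2 and -1.15 with IL-4. With the replicate block 5 of 9 were called lower with IL-2 (30.6% of all genes called) and 5 with IL-4 (25.8%), and none higher. The CD8 T cell markers were also lower with IL-2, where 4 of 7 fell with a median of -0.72, and with IL-4, where 2 of 7 fell with a median of -0.33. With the block 5 of 7 fell with IL-2, and 4 fell and 1 rose with IL-4. The part of these markers in the lower Il6ra, Il6st and Ifngr1 values was not tested.

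Of 13 measured genes of the gp130 and STAT3 list, 2 rose and 2 fell with IL-2 (15.8% of all genes), 2 rose with IL-4 (9.07%), 1 rose with IL-7 (1.68%), none passed with IL-15 and 3 rose with IL-21 (6.67%), with medians from -0.01 with IL-2 to 0.13 with IL-21. Blocking on the replicate number gave 6 for IL-2, 7 for IL-4, 4 for IL-7, none for IL-15 and 5 for IL-21, and the deposited values 1, 1, 0, 0 and 1. Lif, a ligand that signals through gp130, measured 9.05, 9.19 and 9.48 with IL-2, against 5.95, 5.92 and 5.92 in media control (3.31, SE 0.19, limma adjusted p = 3.12e-07). Lif also rose with IL-4 (2.57) and IL-7 (1.32). Against the background level its rises are at least 4.92-fold with IL-2, 2.95-fold with IL-4 and 1.24-fold with IL-7. Osm, which encodes oncostatin M, rose with IL-2 (2.03, SE 0.34, adjusted p = 0.000726), IL-4 (1.38) and IL-21 (1.42). Socs3, the inhibitor that binds gp130, rose with IL-21 (3.04, SE 0.40, adjusted p = 0.000203) and measured 10.94, 12.07 and 11.44 there, against 8.00, 9.20 and 8.12 in media control. Jak1, a kinase of gp130 and of many other receptors, fell with IL-2 (-1.32, SE 0.29, adjusted p = 0.00473). Il6 was under background in every array, at 5.01, 4.36 and 4.35 with IL-4 and 3.96, 3.38 and 3.56 in media control.

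Il10ra, the IL-10-binding chain, did not pass the test with any cytokine. It measured 7.52, 8.13 and 7.50 in the IL-4 group, 7.62, 8.14 and 6.99 in the IL-7 group and 7.46, 8.06 and 6.63 in the IL-2 group, against 6.88, 7.44 and 5.82 in media control. The IL-4 arrays lay above the control arrays and the others overlapped them. The differences were 0.67 in IL-2 cultures (adjusted p = 0.516, and 0.0113 with the replicate block), 1.00 in IL-4 cultures (0.268, and 0.00103) and 0.87 in IL-7 cultures (0.462, and 0.00603). With IL-15 it measured 7.48, 7.75 and 6.70 (difference 0.59, 95% interval -0.45 to 1.64) and with IL-21 6.91, 7.15 and 5.54 (difference -0.18, -1.23 to 0.86). The other 2 Il10ra probe sets were above background on 3 and 0 arrays, and neither passed. The brighter of them went the other way with IL-4 (-0.26) and IL-7 (-0.24) and the same way with IL-2 (0.17).

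Il10, the ligand of this receptor, rose with IL-21. It measured 9.98, 10.56 and 8.83 with IL-21, against 3.83, 3.57 and 4.55 in media control, a rise of 5.81 between measured means (SE 0.36, limma adjusted p = 1.54e-07) from a level under background, or at least 7.23-fold against the background level. Of 12 measured genes of the class II receptor list, 1 rose and 3 fell with IL-2 (15.8% of all genes), 1 rose and 3 fell with IL-4 (9.07%), none passed with IL-7 (1.68%) or IL-15, and 1 rose and 2 fell with IL-21 (6.67%), with medians from -0.27 with IL-21 to -0.02 with IL-2. When the block was added, 4 were called for IL-2, 4 for IL-4, 2 for IL-7, none for IL-15 and 5 for IL-21, whereas as deposited only Il10 was called, with IL-21. Il10rb, the partner chain of the IL-10 receptor, fell with IL-4 (-1.24, SE 0.21, adjusted p = 0.00139) and IL-2 (-0.90). Ifnar1, a chain of the type I interferon receptor, fell with IL-4 (-1.45, SE 0.26, adjusted p = 0.00222), IL-2 (-1.44) and IL-21 (-1.15). Il24, an IL-10 family cytokine, rose with IL-2 (2.91, SE 0.48, adjusted p = 0.000662) and IL-4 (2.24). Its media control mean of 5.01 was under background. The means with IL-2 and IL-4 lay 1.98-fold and 1.24-fold above the background level. Replicate 3 of IL-2 (6.65) and replicates 1 (6.81) and 3 (6.74) of IL-4 were under it.

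Il27ra, the IL-27-binding chain that pairs with gp130, was lower with IL-2 alone among the calls against media control. It measured 8.69, 8.86 and 8.48 with IL-2, against 9.57, 9.83 and 9.73 in media control, and the groups did not overlap. The fall was 1.03 (SE 0.20, 2.05-fold, limma adjusted p = 0.00185), and the call held when any 1 array was left out. It was lost without replicate 1 of every group (adjusted p = 0.075). As deposited the difference was -0.97 and did not pass, nor did it with the block (adjusted p = 0.134). IL-2 was also lower than IL-4 (9.48, 9.87 and 9.17, difference -0.83, adjusted p = 0.0389), IL-15 (9.38, 9.80 and 9.33, difference -0.83, adjusted p = 0.0154) and IL-21 (9.48, 9.80 and 9.13, difference -0.80, adjusted p = 0.0233). The call against IL-4 was lost on leaving out any 1 of the arrays compared other than IL-4 replicate 3. That against IL-15 was lost without IL-2 replicate 1 or 3 or IL-15 replicate 2, and that against IL-21 without IL-2 replicate 1 or 3 or IL-21 replicate 1 or 2. With IL-7 it measured 9.04, 9.27 and 9.09, under all control arrays, a difference of -0.58 that passed only with the block (adjusted p = 0.00419, and 0.162 without it). The differences from media control were -0.20 with IL-4 (95% interval -0.62 to 0.22), -0.21 with IL-15 (-0.63 to 0.21) and -0.24 with IL-21 (-0.66 to 0.18).

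**Figure D3:**
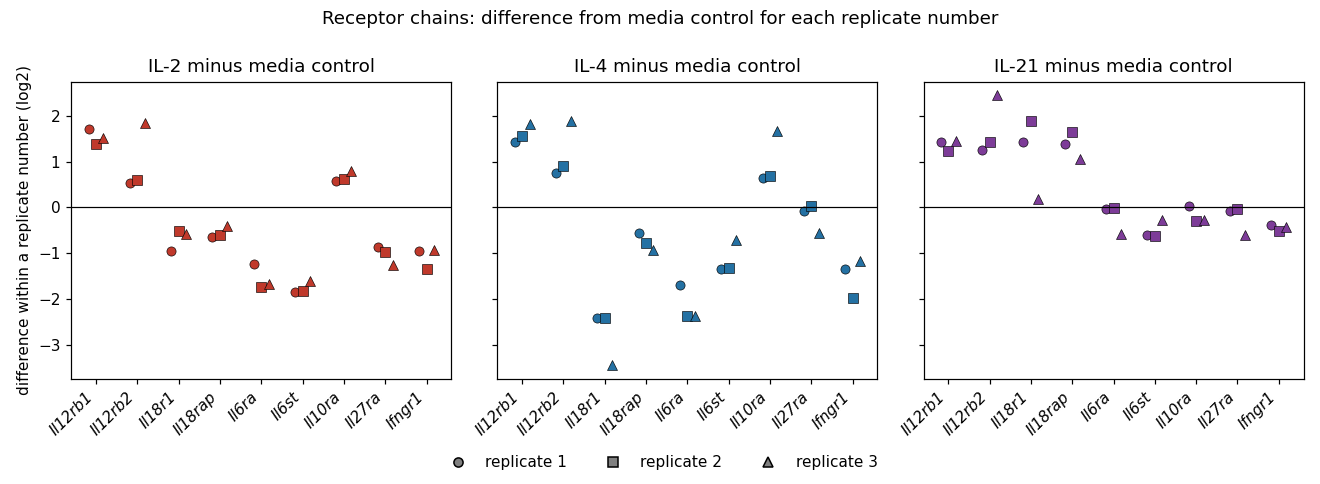
Difference of each receptor chain from the media control array of the same replicate number (log2, vertical axis) in 3 panels (IL-2 at left, IL-4 in the middle and IL-21 at right), 1 symbol per replicate number. All 3 differences of Il12rb1 lie between 1.24 and 1.82 in each panel, and those of Il18r1 lie between -3.44 and -2.41 with IL-4.

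Ifngr1, the chain that binds interferon gamma, was lower with IL-2 and IL-4. It measured 10.72, 10.60 and 10.32 with IL-2 and 10.33, 9.98 and 10.08 with IL-4, against 11.67, 11.95 and 11.25 in media control. No array of these cytokines reached the control range. The IL-4 cultures differed by -1.50 (SE 0.26, 2.82-fold lower, limma adjusted p = 0.00185) and the IL-2 cultures by -1.08 (SE 0.26, 2.11-fold lower, adjusted p = 0.00944). IL-4 was also lower than IL-15 (-1.40, adjusted p = 0.00625) and IL-21 (-1.05, adjusted p = 0.0325), and IL-2 lower than IL-15 (-0.99, adjusted p = 0.0278). The first of these held when any 1 array was left out, the IL-21 call was lost without any 1 of the arrays compared other than IL-21 replicate 3, and the IL-2 call without any 1 other than IL-15 replicate 3. It measured 11.42, 11.42 and 10.83 with IL-7, 11.64, 12.01 and 10.93 with IL-15, and 11.29, 11.43 and 10.83 with IL-21, all overlapping media control. Their differences were -0.40 (95% interval -0.96 to 0.16), -0.09 (-0.65 to 0.46) and -0.44 (-1.00 to 0.12). The IL-2 call was lost without media control replicate 2 (adjusted p = 0.0576).

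Of 17 measured genes that interferon gamma induces, 1 rose and 6 fell with IL-2 (15.8% of all genes), 1 rose with IL-4 (9.07%), none passed with IL-7 (1.68%) or IL-15, and 3 fell with IL-21 (6.67%), with medians from -0.69 with IL-2 to 0.04 with IL-15. The block raised these counts to 2 higher and 10 lower for IL-2, 2 higher and 2 lower for IL-4, 3 higher and 1 lower for IL-7, and 2 higher and 8 lower for IL-21, with none for IL-15, and as deposited none was called for any cytokine. Irf1, a transcription factor, measured 10.80, 9.95 and 9.91 with IL-2, against 11.73, 12.12 and 11.33 in media control (-1.51, SE 0.28, limma adjusted p = 0.00136). Irgm1, an interferon-induced GTPase, fell with IL-2 (-1.27, SE 0.31, adjusted p = 0.00955), and Iigp1, of the same class, fell with IL-21 (-2.52, SE 0.60, adjusted p = 0.0175). Socs1, the inhibitor of JAK signalling, was the member that rose, with IL-4 (1.72, SE 0.38, adjusted p = 0.00932) and IL-2 (1.23). Of the 15 transcription factors and proteases listed as regulators of these receptors, 1 rose and 1 fell with IL-2 (15.8% of all genes), 2 rose with IL-4 (9.07%), 1 rose with IL-7 (1.68%), none passed with IL-15, and 1 rose and 1 fell with IL-21 (6.67%), with medians from -0.25 with IL-2 to 0.18 with IL-4. With the block 6 were called for IL-2, 6 for IL-4, 3 for IL-7, none for IL-15 and 8 for IL-21, and as deposited only Eomes with IL-4. Eomes, a T-box factor of effector and memory cells, rose with IL-4 (2.02, SE 0.34, adjusted p = 0.00132). Bhlhe40, a repressor of Il10 in T cells, rose with IL-21 (1.74, SE 0.19, adjusted p = 4.06e-05), IL-2 (1.53), IL-7 (1.13) and IL-4 (1.06).

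Across the 5 comparisons with media control, the 23 genes named from the pathway lists gave 44 calls. These genes were picked for such a call and a large change, so the number of calls follows in part from that choice. With the replicate block all 44 were kept and 16 were added, among them Socs3 with IL-4 (1.11, limma adjusted p = 4.64e-05) and Osm with IL-7 (1.26, adjusted p = 0.00263). The block also raised the share of all genes called, from 15.8% to 30.6% for IL-2 and from 1.68% to 16.3% for IL-7. Keeping the 44 calls is therefore no test of them. As deposited 11 of the 44 were kept and 33 lost. Those kept were Ifng with IL-2 and IL-21, Il18 and Lif with IL-2 and IL-4, Eomes with IL-4, and Il1r1, Il1r2, Socs3 and Il10 with IL-21, while Jak2 with IL-2 (adjusted p = 0.524) and Irf1 with IL-2 (adjusted p = 0.702) were among those lost.

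**Figure D4:**
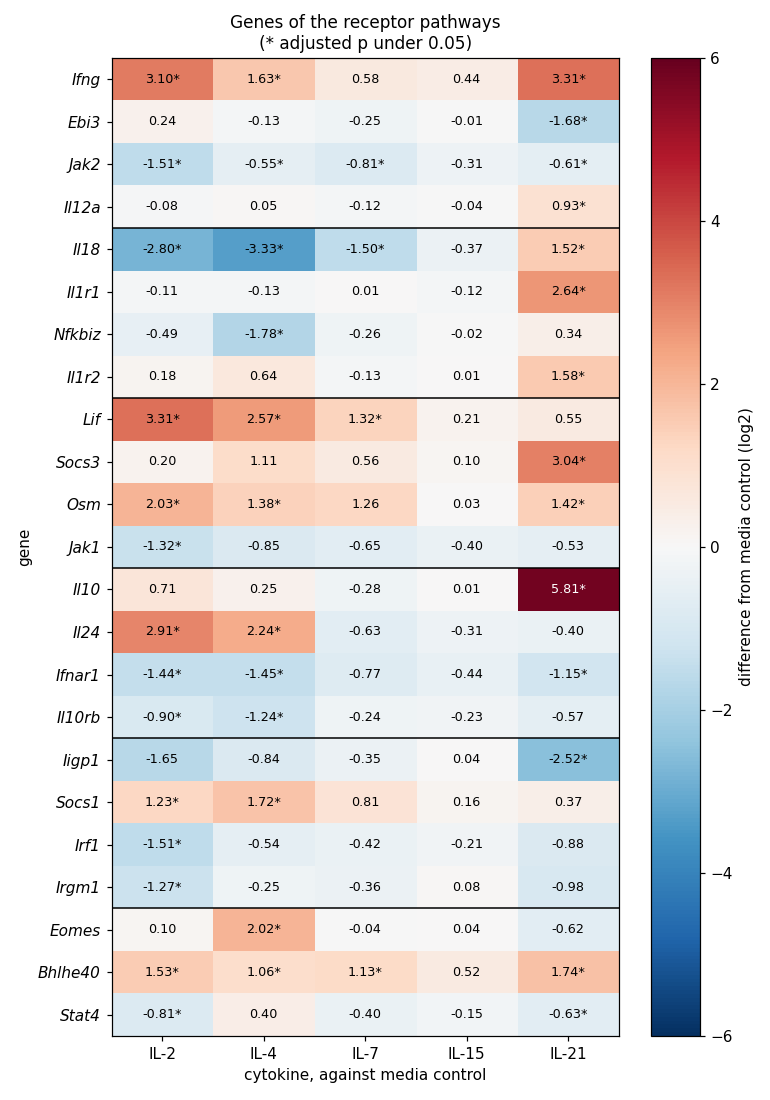
Difference from media control (log2, colour and printed value) of genes named from the 6 pathway lists (rows, with lines between lists) for the 5 cytokines (columns), with an asterisk where the limma adjusted p was under 0.05. Il18 is -3.33 with IL-4 and 1.52 with IL-21, Il10 is 5.81 with IL-21, and no gene carries an asterisk for IL-15.

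Ordered by group mean, the levels of Il18r1 and Il18rap were highest with IL-21 and lowest with IL-4, those of Il6ra, Il6st, Il27ra and Ifngr1 were highest in media control, and those of Il12rb1 were highest with IL-4 (9.15) and IL-2 (9.08). Of the 45 pairs of neighbouring groups in these orders none passed the limma test (smallest adjusted p = 0.0897), and 10 passed with the replicate block. Called differences therefore lay between groups farther apart in the order. The number of chains called between cytokines was 4 for IL-2 against IL-15 (8.6% of all genes), 4 for IL-4 against IL-21 (3.81%), 3 for IL-2 against IL-21 (6.58%), 3 for IL-4 against IL-15 (3.64%), 1 for IL-2 against IL-4 (2.07%) and 1 for IL-4 against IL-7 (1.34%). With the replicate block these counts were 8 (22.4%), 6 (11.7%), 8 (21.4%), 7 (14.1%), 4 (10.6%) and 5 (5.18%). Limma called none for IL-2 against IL-7 (1.42% of all genes, while 1998 had an unadjusted p under 0.05), IL-7 against IL-15 (0.011%, 808), IL-7 against IL-21 (2.24%, 1791) or IL-15 against IL-21 (3.54%, 2238). With the block it called 5 chains for IL-2 against IL-7 (11.1%), 1 for IL-7 against IL-15 (0.335%), 6 for IL-7 against IL-21 (8.89%) and 5 for IL-15 against IL-21 (12.6%).

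Replicate 3, which differed in extraction, lay on 1 side of the other replicates for several chains in every group. Against the mean of the other replicates it was higher for Il18rap by 0.37 to 1.21 and for Il6ra by 0.71 to 1.50, and it differed for Il12rb1 by -1.01 to -0.61, for Il12rb2 by -2.14 to -0.86 and for Il10ra by -1.49 to -0.32. The remaining chains differed less evenly: Il6st by -0.97 to 0.11, Il27ra by -0.51 to 0.03 and Ifngr1 by -0.90 to -0.08. Extraction kit and replicate number 3 cannot be told apart. Across the 18 arrays the genes most like the other called chains were Gmppb (r = 0.97) and Slc39a7 (0.95) for Il12rb1, Rilpl2 (0.94) and Zmynd8 (0.94) for Il6ra, Hscb (0.97) and Slc9a9 (0.97) for Il6st, Man2b1 (0.94) and Rasal3 (0.94) for Il27ra, and Il10rb (0.96) and Mical1 (0.95) for Ifngr1. These arrays share groups, preparations and scale, and the correlations are a description.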

How the data were processed

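The authors hybridised RNA of 18 samples and deposited log2 values per probe set, made with RMA in Affymetrix Expression Console, with no detection calls. Scanner files were not used here. Since 3 arrays lay lower as deposited, all 18 were quantile normalized once more. Probe sets were named through GEO's platform annotation, in which 34958 of 45101 probe sets had 1 symbol, 932 several and 9211 none listed. The probe set of highest mean stood for each of 18194 genes, dim ones included. As background served the 95th percentile over 43 genes known from other tissues.

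Tests used limma 3.58.1 under R 4.3.3 (lmFit with a mean for each of 6 groups, 12 residual degrees of freedom, eBayes, both tails, Benjamini-Hochberg adjustment over all genes of a comparison, threshold 0.05). The fit was tested on simulated data. Deviations from group means correlated at 0.44 or more in all 45 pairs of arrays with a common replicate number (median 0.60). In the 90 others they correlated at 0.38 or less, so arrays of a common number go together. The main fit does not use this pairing, and its calls and failures to pass are those of an unpaired test. Counts of receptor chains and of pathway genes are also given with a block on the number. Alternatives were the values as deposited, a common median, an extraction kit term, the mean of all probe sets, genes above background, the 6 arrays compared, and leaving out arrays. Only 3 arrays per group limit the precision.

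The receptor chains and lists were chosen with earlier results of these data known. The genes named are all receptor chains, up to 4 genes of each pathway list with the largest change among those called against media control, the ligands of the receptors, and for each called chain the 2 genes with the highest r. Promoter windows were read with Python 3.11.15 and pandas 2.3.3, and figures drawn with matplotlib 3.10.9.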

Additional observations from a re-analysis of the deposited data

How the results depend on the processing

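The number of receptor chains called was 5 for IL-2, 5 for IL-4, 0 for IL-7, 0 for IL-15 and 2 for IL-21. With the replicate block it was 8, 8, 6, 0 and 5. With the values as deposited it was 0 for IL-2, 1 for IL-4 (Il18r1) and 2 for IL-21 (Il18r1 and Il18rap), and with the deposited values and the block together 3 for IL-2 and 4 for IL-21. With extraction kit as a term it was 8 for IL-4, 5 for IL-7 and 4 for IL-21. For IL-21 it was 1 with a common median and 1 with only the 6 arrays compared. The common median also lost Il6st with IL-4 (limma adjusted p = 0.0891), and the 6 arrays lost Il6ra with IL-2 (0.101). With the mean of all probe sets, Il6ra with IL-2 (0.0855) and Il6st with IL-4 (0.212) were lost. Leaving out a replicate number or 1 array gave 0 to 8 for IL-2, 0 to 7 for IL-4, 0 to 1 for IL-7, 0 for IL-15 and 0 to 4 for IL-21. Without replicate 1 of every group none was called for any cytokine, and without replicate 2 the counts were 2 (IL-2), 0 (IL-4) and 0 (IL-21), in fits with 2 arrays a group. Without replicate 3 they were 8 for IL-2, 1 for IL-7 and 4 for IL-21. Single arrays that moved a count by over 1.5 times were IL-2 replicate 1 (3) and media control replicate 2 (3) for IL-2, and IL-4 replicates 1 (3) and 2 (2) and media control replicate 3 (3) for IL-4. For IL-21 they were IL-21 replicates 1 (1), 2 (0) and 3 (1) and media control replicates 1 (1), 2 (0) and 3 (1). Without the 3 arrays of lower deposited medians the counts were 4, 5, 0, 0 and 3. No called change turned its direction under these alternatives. Relative to quantile normalization, the deposited values shifted the median of all genes by 0.43 each for IL-4, IL-21 and IL-7. The cause of these differences was not tested.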

Other observations

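Among genes of the IL-1 family list outside those described, IL-21 raised Il1rl2 (1.48) and Myd88 (0.53), while IL-2 lowered Myd88 (-0.55) and Irak1 (-0.49) and raised Irak1bp1 (1.37), each past the limma threshold. The media control mean of Il1rl2 was 5.98, under background, against 7.46 with IL-21. Irak3 was also called lower, with IL-2 (-0.96) and IL-4 (-0.74), but its means of 3.50 with IL-2, 3.72 with IL-4 and 4.46 in media control were all under background. As deposited only Il1rl2 among these calls was kept. Il1rl2 belongs to the receptor for IL-36, Myd88 is the adaptor of these receptors and Irak3 an inhibitor of the IRAK kinases.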
